A study of Mus musculus with 6 samples.

Results

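Ferroptosis is a form of cell death in which iron drives the peroxidation of membrane phospholipids, and cells hold it back with lipid-soluble radical traps as well as with glutathione. Ubiquinone (coenzyme Q) is such a trap once it has been reduced to ubiquinol. It is built in mitochondria by a complex of COQ proteins and is reduced by FSP1 (Aifm2) at the plasma membrane and by DHODH in the inner mitochondrial membrane. Tetrahydrobiopterin, made from GTP by GCH1 and sepiapterin reductase (Spr), is another radical trap, and VKORC1L1 reduces vitamin K to a hydroquinone that can act in the same way. These arms work apart from the cystine, glutathione and GPX4 route, whose cystine importer is missing in the cells studied here.

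The 10 genes described are Aifm2, Dhodh, Coq2, Coq3, Coq5, Coq7, Coq9, Gch1, Spr and Vkorc1l1, chosen by symbol from the 21853 genes of the deposited table, where all 10 were found. The libraries held messenger RNA of embryonic fibroblasts of the C57BL/6J mouse strain, labelled with an age of 12 days and a knockout of xCT in every sample. In 3 libraries the cells had been given water (control) and in 3 red clover extract (RCE). The sources used here do not give the dose, the length of exposure, whether the knockout cells were 1 clone or whether replicates were separate cultures. The p-values therefore reflect only how far these 6 libraries scatter, and that scatter may be technical. Levels are in FPKM, the number of fragments per kilobase after scaling for depth. Changes are differences of log2(FPKM + 1), RCE minus control, which understate the change of genes with low levels.

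Slc7a11, which encodes xCT, ranged from 0.013 to 0.037 FPKM in control libraries and from 0.007 to 0.017 FPKM in RCE libraries (p = 0.2 by an exact permutation test, 2-sided, which cannot go below 0.1 with 3 libraries a group). All 10 fibroblast markers reached a mean of 1 FPKM, and their summed level was 6270 to 6670 FPKM in control and 5720 to 6080 FPKM with RCE. Of 6 markers each, 1 epithelial, 2 endothelial and 1 macrophage or blood marker reached that mean, with sums of at most 4.67 FPKM per library. Neural markers (2 of 6, Tubb3 and Nes) summed to 44.8 to 49.0 FPKM in control and 59.1 to 64.2 FPKM with RCE, and muscle markers (1 of 6, Des, with Myod1 listed at 0 in every library) to 38.3 to 45.2 and 50 to 58.5 FPKM. Their part in the results was not tested, and in bulk RNA a shift in the share of cells cannot be told apart from a change of RNA per cell. Depth, recovered from the steps between low values, was 45600000 to 58900000 fragments per library.

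With the extract, Dhodh and Coq5 rose, Gch1 was lower in all 3 RCE libraries, and most of the other genes had changes above 0 that did not pass the test. The test covered the 9 genes whose mean reached 1 FPKM. Of these, 2 were higher and 0 lower in limma (adjusted p under 0.05), against 17.6% higher and 6.77% lower among all 10870 genes tested. The median change of the 9 was 0.17, against 0.08 over all genes tested. Of the 9 changes 8 were above 0, as were 7630 of those of all 10870 genes tested. With median-of-ratios scaling, which moved the median of all genes to 0.00, the median of the 9 was 0.10 and 1 gene passed as higher, against 8.4% of all genes. With replicate number as a block, a fit that compares libraries of the same number, 8 of the 9 were higher and 0 lower, against 46.6% and 15.9% of all genes. The count of 2 became 1 without control replicate 2, where Aifm2 passed and Dhodh and Coq5 did not. It was 0 without control replicate 3, RCE replicate 2 or RCE replicate 3. In these fits, in that order, 909, 844, 685 and 899 of all 10870 genes were higher. Without both libraries numbered 1 the count was 7, against 40.1% of all genes higher there. Without those libraries and with no filter it was 3, against 18.4% of all genes. The 8 called with the block became 4 when median-of-ratios scaling was added, against 2871 of all 10870 genes. They became 3 when GC correction was added, against 2751 of all genes. Coq7 was called lower in each of these fits, as were 3013 and 2950 of all genes.

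**Figure D1:**
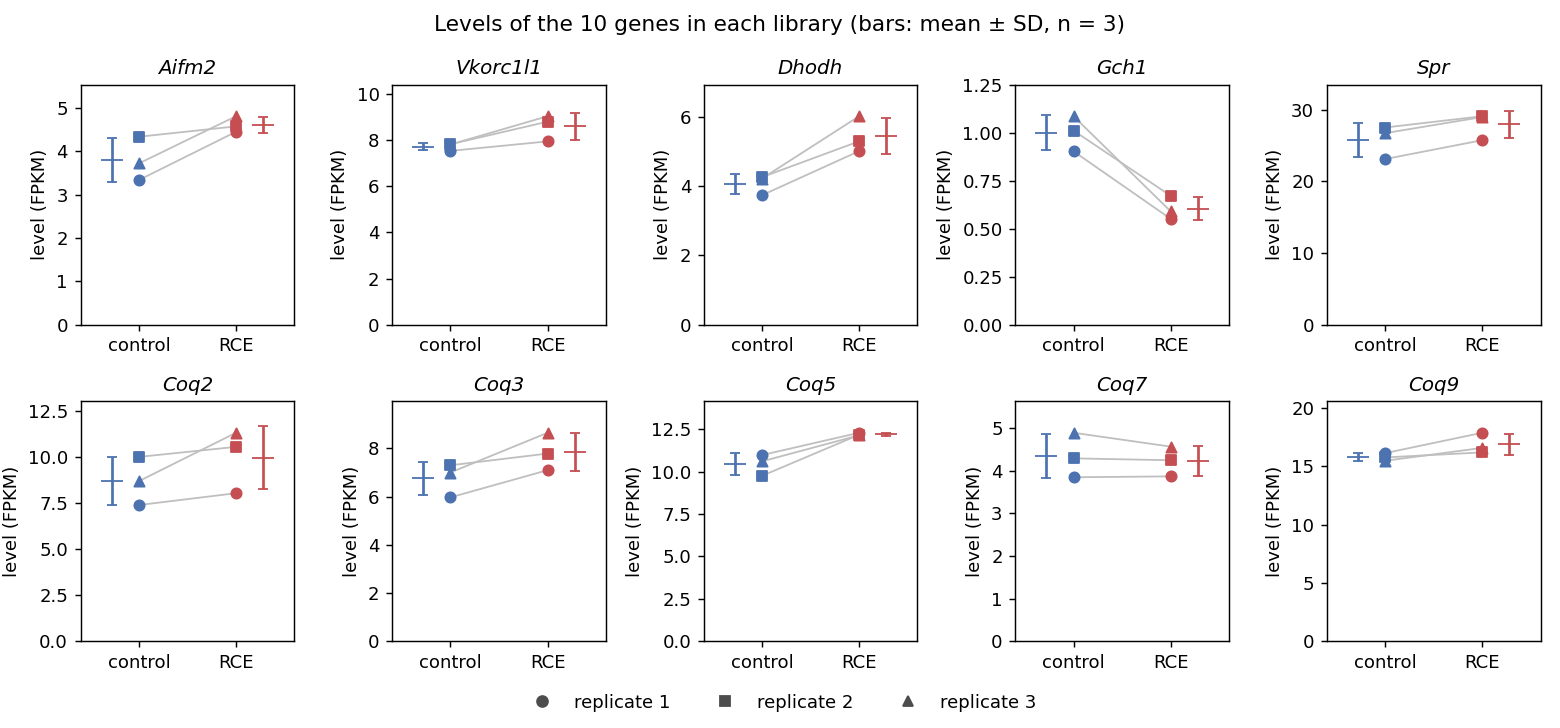
Levels in FPKM (vertical axes, each from 0) of the 10 genes in the 3 control and 3 RCE libraries. Grey lines join libraries of the same replicate number and bars show the mean and SD (n = 3). The RCE libraries lie above all control libraries for Aifm2, Vkorc1l1, Dhodh, Coq5 and Coq9 and below them for Gch1.

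In control cells the order of levels, which FPKM allow because they are per length, ran from Spr (25.8 FPKM) through Coq9 (15.8), Coq5 (10.4), Coq2 (8.70), Vkorc1l1 (7.71), Coq3 (6.76), Coq7 (4.34), Dhodh (4.07) and Aifm2 (3.80) to Gch1 (1.00 FPKM). The ranges of neighbours overlapped between Coq5 and Coq2, Coq2 and Vkorc1l1, Coq7 and Dhodh, and Dhodh and Aifm2, so the order within those pairs was not beyond the spread of the libraries. With RCE the order was the same except that Coq7, at 4.22 FPKM, stood below Dhodh (5.44 FPKM) and Aifm2 (4.62 FPKM). There Coq7 and Aifm2 overlapped in range, while Dhodh lay above both. Among the other neighbours with RCE, Coq2 and Vkorc1l1 overlapped, as did Vkorc1l1 and Coq3, while Coq5 lay above Coq2. The transcript of the terminal biopterin enzyme Spr thus stood highest in both groups and that of the entry enzyme Gch1 lowest.

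Gch1 encodes GTP cyclohydrolase, the entry and rate-limiting step of tetrahydrobiopterin synthesis (ENSMUSG00000037580, chromosome 14, 47153895 to 47189413 on mm10). In order of replicate, the control libraries held 0.904, 1.01 and 1.09 FPKM and the RCE libraries 0.552, 0.672 and 0.591 FPKM. The highest RCE library thus lay below the lowest control library. The group means were 1.00 ± 0.092 and 0.605 ± 0.0612 FPKM (SD, n = 3), a change of -39.6% in the mean. With an overall mean under 1 FPKM, Gch1 was outside the genes tested, and its change of -0.32 stands there without a test. With no filter on low values, limma gave -0.32 (SE 0.05, 95% interval -0.43 to -0.21, adjusted p = 0.00906), in a fit that called 5.24% of 17334 genes lower. The adjusted p was 0.00399 when the block was added to that fit and 0.0220 without both libraries numbered 1. With a pseudocount of 0.1 in place of 1 its change was -0.64. Between about 70 and 149 fragments lay behind each value, the fewest of the 10 genes.

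Spr, sepiapterin reductase, which completes tetrahydrobiopterin (chromosome 6, 85130176 to 85137766), was at 23.1, 27.5 and 26.7 FPKM in control and 25.7, 29.1 and 29.0 FPKM with RCE, in order of replicate. The groups overlapped, and replicate 1 was the lowest of each group. Its change was 0.11 (95% interval -0.09 to 0.31, adjusted p = 0.365), and it was higher with RCE in 3 of 3 same-numbered pairs, as were 56.5% of all genes tested. With the block it passed the threshold (adjusted p = 0.00648), but not with the block plus median-of-ratios scaling (change 0.029, adjusted p = 0.385) or plus GC correction (0.063, adjusted p = 0.0803). An unprocessed pseudogene, Spr-ps1, lies on the same chromosome, and the counting could split reads between them.

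Dhodh (ENSMUSG00000031730, chromosome 8, 109591343 to 109608673) encodes dihydroorotate dehydrogenase, which oxidises dihydroorotate for pyrimidine synthesis and passes the electrons to ubiquinone. It was at 3.73, 4.26 and 4.21 FPKM in control and 5.01, 5.29 and 6.01 FPKM with RCE, in order of replicate. Every RCE library lay above every control library. Means were 4.07 ± 0.29 and 5.44 ± 0.519 FPKM (SD, n = 3), 33.6% higher with RCE, and the change was 0.34 (SE 0.07, 95% interval 0.17 to 0.52, adjusted p = 0.02 in limma). Dhodh no longer passed when control replicate 2 (adjusted p = 0.0536), control replicate 3 (0.0582), RCE replicate 2 (0.0669) or RCE replicate 3 (0.0537) was left out, and with quantile normalization (0.0519) and GC correction (0.0585). Over all 19 alternatives its change stayed between 0.25 and 0.41.

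FSP1, the ferroptosis suppressor that reduces ubiquinone and vitamin K with NAD(P)H, is encoded by Aifm2 (ENSMUSG00000020085, chromosome 10, 61715263 to 61739260). The control libraries held 3.34, 4.34 and 3.72 FPKM and the RCE libraries 4.45, 4.58 and 4.81 FPKM, again in order of replicate. The groups did not overlap, though the highest control library, replicate 2, lay close to the lowest RCE library. The change of 0.23 (SE 0.08, 95% interval 0.04 to 0.42) did not pass the threshold (adjusted p = 0.0833 in limma). It did so with the block (adjusted p = 0.00627, and 0.0302 and 0.033 with median-of-ratios scaling or GC correction added), without control replicate 2 (0.0356) and without both libraries numbered 1 (0.0363). An exon of H2afy2, a histone variant gene on the opposite strand, shares 233 bases with an exon of Aifm2. H2afy2 rose from 7.09 to 10.8 FPKM (change 0.54, adjusted p = 0.000722), and as the strand setting of the counting was not given in the sources used here, its part in the value of Aifm2 was not tested.

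Vkorc1l1, the paralog of the vitamin K epoxide reductase (chromosome 5, 129941970 to 129986692), was at 7.53, 7.82 and 7.80 FPKM in control and 7.94, 8.79 and 9.03 FPKM with RCE, in order of replicate. The groups did not overlap, with RCE replicate 1 only just above control. Its change was 0.14 (95% interval 0.004 to 0.27, adjusted p = 0.123), which passed with the block (adjusted p = 0.00908), without RCE replicate 1 (0.0340) and without both libraries numbered 1 (0.00557). It did not pass with the block plus median-of-ratios scaling (change 0.058, adjusted p = 0.175) or plus GC correction (0.044, adjusted p = 0.296). Vkorc1 itself, the enzyme of the classical vitamin K cycle, was more abundant, at 34.2 ± 2.09 and 33.9 ± 3.03 FPKM (SD, n = 3), with a change of -0.01 (95% interval -0.20 to 0.18, adjusted p = 0.923). That change was 0.034 without control replicate 2 and 0.056 without RCE replicate 1, and it was called lower with the block plus median-of-ratios scaling (-0.10, adjusted p = 0.0237) or plus GC correction (-0.08, adjusted p = 0.0472).

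Of the 5 COQ genes, Coq5 rose and the others did not pass the threshold. Coq5, the C-methyltransferase that methylates the ubiquinone ring (ENSMUSG00000041733, chromosome 5, 115279666 to 115296972), was at 10.97, 9.75 and 10.6 FPKM in control and 12.3, 12.2 and 12.1 FPKM with RCE. The RCE libraries all lay above control and spanned a narrow range. Means were 10.4 ± 0.628 and 12.2 ± 0.0779 FPKM (SD, n = 3), 16.8% higher with RCE (change 0.21, SE 0.05, 95% interval 0.08 to 0.33, adjusted p = 0.0311 in limma). Coq5 no longer passed when control replicate 2 (adjusted p = 0.0866), control replicate 3 (0.0863), RCE replicate 1 (0.0555), RCE replicate 2 (0.109) or RCE replicate 3 (0.0942) was left out, and with GC correction (0.151), quantile normalization (0.122) and median-of-ratios scaling (0.184). Its change was 0.13 with median-of-ratios scaling and 0.24 without control replicate 1, the lowest and highest of 20 alternatives.

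Coq2, the prenyltransferase that joins the isoprenoid tail to the ring (chromosome 5, 100654723 to 100675140), had the widest spread. It was at 7.39, 10.01 and 8.69 FPKM in control and 8.04, 10.6 and 11.3 FPKM with RCE, so the groups overlapped and replicate 1 was lowest in each. Its change was 0.17 (95% interval -0.17 to 0.52, adjusted p = 0.426), and 0.0187 was the adjusted p with the block (0.135 and 0.109 with median-of-ratios scaling or GC correction added). Coq3, the O-methyltransferase of the pathway (chromosome 4, 21879673 to 21912162), was at 5.97, 7.30 and 7 FPKM in control and 7.10, 7.79 and 8.65 FPKM with RCE. Here too the groups overlapped, at RCE replicate 1. The change of 0.19 (95% interval -0.03 to 0.41, adjusted p = 0.180) passed with the block (adjusted p = 0.00441), also with median-of-ratios scaling added (0.0399) but not with GC correction added (0.0733). Without both libraries numbered 1, Coq2 and Coq3 passed as well (adjusted p = 0.022 and 0.02).

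Coq7 is the ring hydroxylase of the late pathway, and COQ9 is the lipid-binding protein that presents the substrate to it. Coq7 (chromosome 7, 118509659 to 118533356) was at 3.84, 4.29 and 4.89 FPKM in control and 3.86, 4.24 and 4.56 FPKM with RCE. The RCE libraries lay within the control range, and the change was -0.03 (95% interval -0.23 to 0.18, adjusted p = 0.840). It was 0.044 without control replicate 3 and 0.021 without RCE replicate 1, and it was called lower with the block plus median-of-ratios scaling (-0.10, adjusted p = 0.0472) or plus GC correction (-0.10, adjusted p = 0.0406). Coq9 (chromosome 8, 94838321 to 94854895) was at 16.1, 15.8 and 15.5 FPKM in control and 17.9, 16.2 and 16.6 FPKM with RCE. Its groups lay close without overlapping, and RCE replicate 1 was the highest. The change of 0.09 (95% interval -0.03 to 0.21, adjusted p = 0.239) passed with the block (adjusted p = 0.0292). It was 0.0081 with median-of-ratios scaling (adjusted p = 0.833 with the block) and 0.026 with GC correction (adjusted p = 0.491 with the block). Coq9 shares 38 bases of exon with Ciapin1 on the opposite strand, whose change was 0.19 (adjusted p = 0.0533).

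In all, groups did not overlap for 5 of the 9 tested genes with RCE above control and for 0 with RCE below, against 31.2% and 10.9% of all genes tested. All 5 are named in the plot of levels by library. Changes within same-numbered pairs were above 0 in 3 of 3 pairs for each tested gene except Coq7, as they were for 56.5% of all genes tested. The widest difference among pairs was that of Coq2, with 0.11, 0.07 and 0.35 for replicates 1, 2 and 3.

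**Figure D2:**
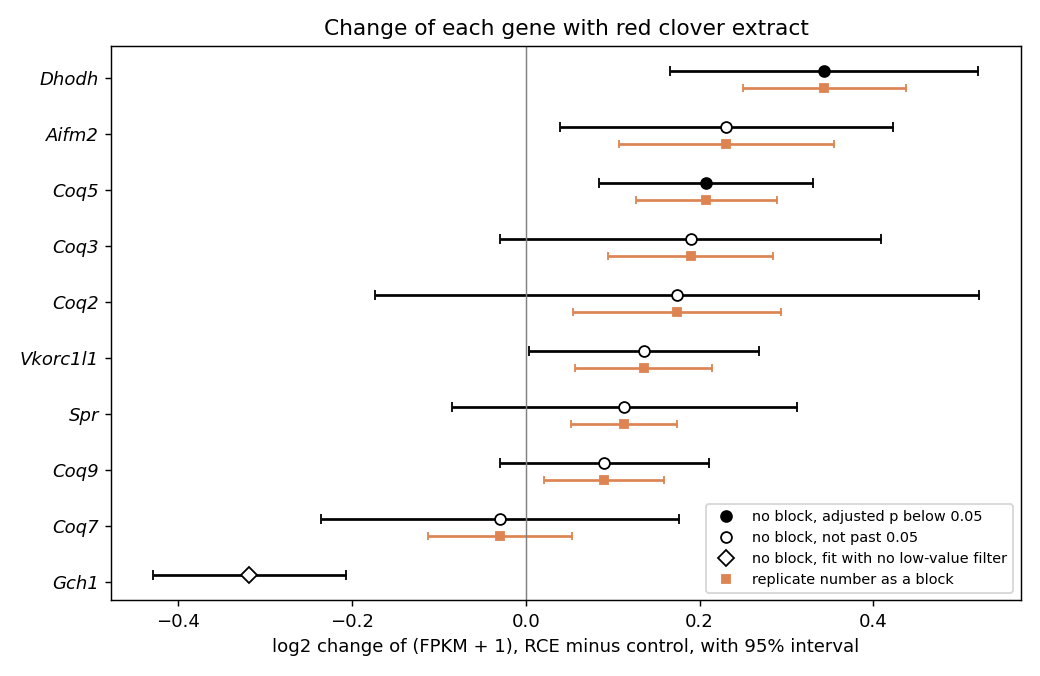
Change of each gene (horizontal axis, log2 of FPKM + 1, RCE minus control) with its 95% interval, without a block (black) and with replicate number as a block (orange). Filled circles mark Dhodh and Coq5, the diamond is Gch1 in the fit with no filter on low values, and for Coq7 both intervals cross 0.

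Promoter windows are shown for Gch1, the gene that was lower in every RCE library, for Aifm2, which had the largest change among tested genes with a RefSeq window, and for the partners Coq7 and Coq9. RefSeq windows on GRCm38.p6 were found for 8 of the 10 genes, without Dhodh and Coq5. Each window below is the 250 bases before a RefSeq transcript start, 5′ to 3′ on the gene's strand, with every match to a searched motif in capitals. The windows are chr14:47189414-47189663 (minus strand) for Gch1, chr10:61720399-61720648 (plus) for Aifm2, chr7:118533357-118533606 (minus) for Coq7 and chr8:94838163-94838412 (plus) for Coq9. RefSeq and GENCODE starts can differ. The Aifm2 window lies inside the GENCODE gene given above, downstream of its outermost start, and the Coq9 window runs past the GENCODE start.
Gch1: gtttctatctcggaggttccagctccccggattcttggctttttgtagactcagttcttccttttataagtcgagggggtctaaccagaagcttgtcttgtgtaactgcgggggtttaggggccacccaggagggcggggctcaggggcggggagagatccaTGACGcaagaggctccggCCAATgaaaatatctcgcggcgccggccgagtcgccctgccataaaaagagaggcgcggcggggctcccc
Aifm2: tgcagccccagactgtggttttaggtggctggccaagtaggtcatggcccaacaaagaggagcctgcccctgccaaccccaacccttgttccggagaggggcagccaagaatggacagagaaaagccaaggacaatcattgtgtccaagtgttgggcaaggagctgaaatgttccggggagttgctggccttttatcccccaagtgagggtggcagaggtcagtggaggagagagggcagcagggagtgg
Coq7: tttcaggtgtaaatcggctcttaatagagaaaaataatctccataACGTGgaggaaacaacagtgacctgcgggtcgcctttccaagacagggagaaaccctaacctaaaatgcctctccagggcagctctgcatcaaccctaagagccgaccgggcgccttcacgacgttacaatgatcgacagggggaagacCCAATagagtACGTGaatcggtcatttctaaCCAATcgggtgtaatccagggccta
Coq9: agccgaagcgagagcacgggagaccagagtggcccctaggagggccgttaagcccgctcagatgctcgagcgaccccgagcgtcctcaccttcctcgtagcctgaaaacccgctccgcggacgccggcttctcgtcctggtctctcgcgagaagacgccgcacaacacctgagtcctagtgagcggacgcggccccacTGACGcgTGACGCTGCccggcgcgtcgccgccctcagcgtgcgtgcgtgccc

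Motifs were searched on both strands as the CCAAT box (CCAAT), the core of the cAMP response element (TGACG), the core of the antioxidant response element bound by NRF2 (TGACNNNGC, which can contain TGACG), the hypoxia response core (ACGTG), the E-box (CACGTG, which contains ACGTG) and the sterol response element of SREBP (TCACNCCAC). Of all 32851 windows of this length, 33.8% hold CCAAT, 17.8% TGACG, 10.2% TGACNNNGC, 16.6% ACGTG, 6.02% CACGTG and 1.05% TCACNCCAC. The Gch1 window holds TGACG at 88 to 84 bases and CCAAT at 70 to 66 bases before the start, a pair of elements known from studies of this promoter. The Aifm2 window holds none of these letters. In the Coq7 window ACGTG stands at 205 to 201 and 46 to 42 bases and CCAAT at 56 to 52 and 25 to 21 bases before the start. The Coq9 window holds TGACG at 52 to 48 bases and TGACGCTGC, a match to TGACNNNGC, at 45 to 37 bases. These are matches of letters, not measured sites, and the motifs were chosen after the values and windows were seen.

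The genes around the 10 were described by lists of their pathways. Among 10 tested genes of the rest of ubiquinone synthesis and handling, 2 rose and 0 fell, against 17.6% and 6.77% of all genes tested. The list's median change was 0.15, against 0.08 over all genes tested. With the block 6 were higher, against 46.6% of all genes, and the median was 0.08 with median-of-ratios scaling and 0.050 with quantile normalization. Nqo1, a quinone reductase and well-known NRF2 target, rose from 72.4 ± 6.52 to 117 ± 13.8 FPKM (SD, n = 3, change 0.68, adjusted p = 0.00738). Pdss1, a subunit of the enzyme that builds the isoprenoid tail of ubiquinone, went from 1.66 to 2.01 FPKM (change 0.18, adjusted p = 0.0470), a call that ended without any of the 6 libraries (adjusted p of 0.0515 to 0.146). Its partner subunit Pdss2 was at 2.85 and 3.34 FPKM (change 0.17, adjusted p = 0.0903, and 0.00979 with the block). The kinase-like Coq8a was at 0.437 and 0.457 FPKM, under the filter.

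Isoprenoid supply, the part of the mevalonate pathway that also feeds the ubiquinone tail, went the other way. Of 8 tested genes 5 fell and 0 rose, against 6.77% lower and 17.6% higher of all genes tested. The list's median was -0.24, against 0.08 over all genes tested. Fdps, which makes farnesyl diphosphate, fell from 31.7 ± 2.95 to 19.4 ± 2.28 FPKM (SD, n = 3, change -0.68, adjusted p = 0.00650). Idi1, the isomerase of isopentenyl diphosphate, fell from 3.45 to 2.21 FPKM (change -0.47, adjusted p = 0.00143), and Hmgcs1, the synthase at the entry of the pathway, from 18.4 to 14.2 FPKM (change -0.35, adjusted p = 0.00778). The kinase Mvk fell as well (change -0.30, adjusted p = 0.0300), but not without control replicates 1, 2 or 3 or RCE replicates 2 or 3, each left out alone (adjusted p of 0.0577 to 0.0849). The falls of Fdps, Idi1 and Hmgcs1 passed in every alternative that tested them, and the list's median was between -0.32 and -0.23 over them.

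Pyrimidine synthesis around DHODH had 2 of 6 genes higher and 0 lower, against 17.6% and 6.77% of all genes tested. Its median was 0.25, against 0.08 over all genes tested. The median was 0.17 with median-of-ratios scaling and 0.15 without control replicate 1. Cad, which carries out the steps before DHODH, rose from 13.3 ± 0.335 to 17.2 ± 0.699 FPKM (SD, n = 3, change 0.34, adjusted p = 0.00477). Uck1, a uridine-cytidine kinase of the salvage route, rose from 12.4 to 15.4 FPKM (change 0.30, adjusted p = 0.00589). Both passed in every alternative run. Among 7 tested mitochondrial dehydrogenases that, like DHODH, pass electrons to ubiquinone, 0 rose and 1 fell, against 17.6% and 6.77% of all genes tested. The median of this list was 0.05, and -0.04 with median-of-ratios scaling. The gene that fell was the glycerol phosphate dehydrogenase Gpd2, which went from 12.6 to 10.8 FPKM (change -0.21, adjusted p = 0.0125). Its adjusted p was 0.0535 to 0.0589 without control replicate 2, control replicate 3, RCE replicate 2 or RCE replicate 3.

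In the rest of the biopterin pathway 1 of 6 tested genes rose and 0 fell, against 17.6% higher and 6.77% lower of all genes tested. The median was 0.04, and -0.04 with median-of-ratios scaling. Gchfr, the feedback regulator of GCH1, was under the filter at 0.417 ± 0.0662 and 0.330 ± 0.134 FPKM (SD, n = 3). Of 3 tested genes of the vitamin K cycle 1 rose, beside the same 17.6% of all genes. The median was 0.04, and -0.04 with median-of-ratios scaling. Of the 2 N-myristoyltransferases, the enzymes whose lipid anchor holds FSP1 at membranes, Nmt2 fell from 9.74 to 8.36 FPKM (change -0.20, adjusted p = 0.0322, and 0.0624 to 0.113 without control replicates 2 or 3 or any RCE library).

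In the cystine, glutathione and GPX4 arm 1 of 5 tested genes rose and 1 fell, against 17.6% and 6.77% of all genes tested. The median was 0.03, and -0.06 with median-of-ratios scaling. Of the subunits of the enzyme that starts glutathione synthesis, the catalytic Gclc fell from 40.3 to 29.2 FPKM (change -0.45, adjusted p = 0.00364) and the modifier Gclm rose from 27.5 to 34.4 FPKM (change 0.32, adjusted p = 0.0116, and 0.0507 with median-of-ratios scaling and 0.102 with GC correction). Gpx4, the lipid hydroperoxide reductase, had a change of -0.03 (95% interval -0.14 to 0.08), which was 0.056 with quantile normalization. It was called lower with the block plus median-of-ratios scaling (-0.12, adjusted p = 0.00787) or plus GC correction (-0.08, adjusted p = 0.0407).

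**Figure D3:**
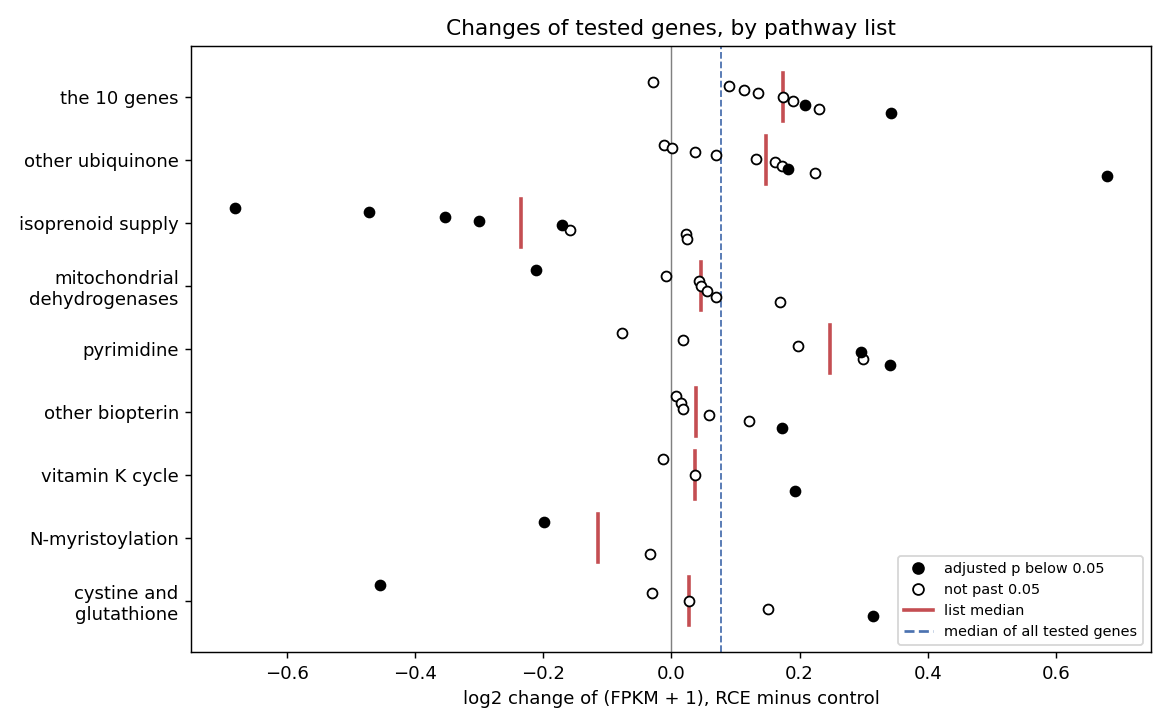
Change of every tested gene (horizontal axis, log2 of FPKM + 1, RCE minus control) in the 10 genes and in 8 lists of neighbouring pathways. Filled points passed an adjusted p of 0.05, red bars are list medians and the dashed line is the median of all genes tested, 0.08. The isoprenoid supply list has 5 of 8 genes filled to the left of 0, against 6.77% of all genes tested. The ubiquinone lists lie mostly to the right, as do 7630 of all 10870 genes tested.

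The 3 genes whose pattern over the 6 libraries was most like that of Dhodh, the gene with the smallest p among the 9 tested, were Fhl1, Lime1 and Casp2, with root mean square differences of 0.015, 0.024 and 0.029 between log2(FPKM + 1) values centred on each gene's mean. Fhl1, a LIM domain protein, had a control mean of 118 FPKM and an RCE mean of 150 FPKM, Lime1 at 4.61 and 6.01 FPKM, and Casp2, a caspase, at 3.06 and 4.19 FPKM. In each of them, as in Dhodh, RCE replicate 3 was the highest library and control replicate 1 the lowest. That likeness follows largely from how they were picked.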

How the data were processed

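Messenger RNA was sequenced from stranded TruSeq libraries, per the labels' protocols, in 3 control and 3 RCE samples. The authors deposited 1 value per gene and library, taken as FPKM from the values and the submitters' processing notes, since the header names no unit. Those notes name mm10, STAR 2.5.4, Cufflinks and Cuffdiff 2.2.1. The annotation, filters and strand setting behind the counting are not given in the sources used here.

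All 21853 identifiers were found in GENCODE M21 (mm10). Depth was the value at which FPKM of 0.02 to 0.5 gave whole fragments, within 0.1, for genes with 1 transcript of at most 1500 bases (100% of 269 to 296 values per library, against 12.8 to 14.9% at other depths). Fragments behind a value were estimated with the longest coding transcript and cover counting error only.

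Values were taken as log2(FPKM + 1) and the groups compared in limma 3.58.1 under R 4.3.3, with a trend of the prior variance on level. The fit held the 10870 genes whose mean reached 1 FPKM and was 2-sided, with Benjamini-Hochberg adjustment over all of them. The fit was tested on simulated data with independent noise for each gene and library, which leaves out the deviations that libraries share here. Across genes, same-numbered libraries deviated from their group means together (r of 0.92, 0.62 and 0.68), and the block took the numbers as pairs. However, control replicate 2 and RCE replicate 3 (0.77) and control replicate 3 and RCE replicate 2 (0.72) correlated more. These values therefore do not show which of the libraries numbered 2 and 3 belong together. The labels do not say what a number stands for.

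The 10 genes and the lists were chosen with earlier results of these data known. Named besides the 10 were up to 4 genes per list with the smallest p past the threshold, and Nqo1, Vkorc1, Gchfr, Coq8a, Pdss2, Slc7a11 and Gpx4. Fdx2, a list gene, was not analysed here. Some genes that this rule names are left unreported. Alternatives were the block, GC correction, quantile normalization, median-of-ratios scaling, no trend, no filter, a minimum mean of 5 FPKM, pseudocounts of 0.1 and 0.5, and libraries left out.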

Additional observations from a re-analysis of the deposited data

How the results depend on the processing

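Of the 9 tested genes among the 10, 2 were called higher and 0 lower, with Gch1 not tested. The counts of all genes were 1910 higher and 736 lower. With the replicate block they were 8 and 0 of the 9 genes, and 5060 and 1730 of all genes. The replicate block with median-of-ratios scaling gave 4 and 1 of the 9 genes and 2871 and 3013 of all genes. The replicate block with GC correction gave 3 higher and 1 lower of the 9, and 2751 and 2950 of all genes. Median-of-ratios scaling alone left 1 of the 9 higher and 913 of all genes. Quantile normalization left 0 and 785, and GC correction 0 and 890, with 1185 of all genes lower. A mean of at least 5 FPKM left 6 of the 10 genes tested, with 1 higher, and 867 higher and 485 lower among 7816 genes tested. With no filter all 10 were tested, among 17334 genes, and 1 of the 10, Gch1, was lower. Leaving out each library in turn gave 0 to 2 of the 9 genes higher, and 685 to 2040 higher and 394 to 734 lower of all genes. Without both libraries numbered 1 there were 7 of the 9 higher, and 4364 and 1480 of all genes. Chosen after seeing the data, no filter with the replicate block gave 6 higher and 1 lower of the 10, and 4874 and 1909 of 17334 genes. Likewise no filter without both libraries numbered 1 gave 3 higher and 1 lower of the 10, and 3188 and 1316 of 17334 genes. The sign of Coq7 turned in leave-one-out fits (range -0.097 to 0.044), that of Vkorc1 in leave-one-out fits (range -0.068 to 0.056) and without both libraries numbered 1 (0.023, with or without the filter), and that of Gpx4 with quantile normalization (0.056). Slc7a11 paired by number gave an exact permutation p of 0.25, the smallest that 3 pairs can give. The causes were not tested. With 3 libraries a group, the calls of Dhodh and Coq5 depended on which library was left out, and Gch1 rests on few fragments.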
